A study of Mus musculus with 2 samples.

Results

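The 9 coagulation factor genes described here are Fga, Fgb and Fgg, F2, F5, F10, F13a1, Serpinc1 and Plg. They were chosen by name, and all 9 were found among the 27998 genes of the count tables. The level of each gene was read in 9 annotated cell types of the E12.5 liver of 1 wild-type C57BL/6 mouse embryo, dissociated enzymatically and mechanically, sorted to remove debris, dead cells and doublets, and loaded as 2 technical replicate libraries, here library 1 and library 2. The libraries share 1 liver and there is no second condition, so no test between animals was possible and each value is given for each library with an interval that covers counting error only. After the annotation of the study, 5480 cells with 51969226 unique molecular identifiers (UMIs, counted RNA molecules) were kept in library 1 and 5057 cells with 62738015 UMIs in library 2. Levels are counts per 1000000 UMIs (CPM), pooled over all cells of a type, and because each UMI counts 1 molecule whatever its length, the values were not divided by gene length.

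Blood clots when a chain of plasma proteases ends in thrombin, made from prothrombin (F2), which cuts fibrinogen into fibrin. Factor X (F10) with its cofactor factor V (F5) makes thrombin, and factor XIII, whose A chain is F13a1, crosslinks the fibrin. Antithrombin (Serpinc1) inhibits thrombin and factor X, and plasminogen (Plg) gives the protease that dissolves fibrin. In the adult, hepatocytes secrete most of these proteins, whereas factor XIII A chain is known from megakaryocytes and from cells of the monocyte and macrophage lineage, and factor V is also stored in platelets.

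Of the cell types, hepatoblasts (Hepa, the liver epithelial progenitors) held 33 and 31 cells in libraries 1 and 2, endothelial cells (EC) 20 and 26, megakaryocytes (Mk) 79 and 56, monocytes and Kupffer cells (Mo/KC) 56 and 58, and granulocytes (G) 157 and 130. The others were hematopoietic stem and progenitor cells (HPSC), erythroid progenitors (Ery), erythroblasts (Eryb) and primitive erythroid cells (EryP). The labels were checked against defining genes of each type. Alb, Afp, Apoa1, Apoa2 and Ttr summed to 53215 and 39435 CPM in Hepa and to at most 67.0 CPM in any other type. Pf4, Ppbp, Gp9, Gp1bb and Itga2b summed to 16767 and 14061 CPM in Mk. Fcgr1, Csf1r, Adgre1, C1qa and Cd68 summed to 1575 and 1003 CPM in Mo/KC and to at most 74.5 CPM elsewhere. Cldn5, Cdh5, Kdr, Pecam1 and Stab2 summed to 2332 and 2027 CPM in EC, with Mk next at 143 and 67.1 CPM. Klf1 and Rhd summed to 2443 and 1446 CPM in Eryb, 925 and 837 CPM in Ery and 632 and 484 CPM in EryP. The 5 G markers summed to 24671 and 19269 CPM in G, but also to 1018 and 690 CPM in Mo/KC, and HPSC carried them too. The 3 HPSC markers separated HPSC, at 557 and 525 CPM, only weakly from Mo/KC, at 315 and 307 CPM, and G, at 307 and 313 CPM. The part of such shared RNAs in the Mo/KC, G and HPSC results was not tested. Mk also carried RNAs of other types: 5 mesenchymal markers (Col1a1, Col3a1, Dcn, Pdgfrb and Des), none at 0, summed to 160 and 176 CPM in Mk and to at most 56.2 CPM elsewhere. The 3 embryonic globins Hba-x, Hbb-y and Hbb-bh1 summed to 615567 and 482126 CPM in EryP. They summed to 613 and 4114 CPM in Mk, but were not particular to Mk among the other types. In library 1 they were at 570 CPM in Hepa, 738 CPM in Mo/KC, 890 CPM in G and 1752 CPM in EC. In library 2 they were at 4175 CPM in Eryb, 2458 CPM in G and 1869 CPM in HPSC, but at 511, 527 and 455 CPM in Hepa, Mo/KC and EC. The part of these RNAs in the Mk results was not tested. In all, 31 cell barcodes were kept in both libraries.

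The fibrinogen genes lie side by side on chromosome 3 (GRCm38) in the order Fgg, Fga and Fgb, over 42140 bases. Gaps of 11026 and 6513 bases separate them, and Fgb is on the opposite strand to the other two. The other genes lie apart: F2 at chr2:91625320-91636414, Serpinc1 at chr1:160978585-161005863, F5 at chr1:164151838-164220277, F10 at chr8:13037308-13056676, F13a1 at chr13:36867178-37050244 and Plg at chr17:12378608-12419385 (GRCm38). The bases before the start of Fgb, Fgg, F10 and F13a1 are printed below as RefSeq gives them, 5′ to 3′ on the strand of the gene, because these genes stand for the 3 patterns of expression that follow. For Fga a short piece is shown, since the annotations disagree on its start: the piece ends before the RefSeq start but lies wholly within the first exon of a GENCODE transcript, which begins at 83026076. Capitals mark matches, on either strand, to 8 motifs that are spelled out after the sequences.
Fgb, chr3:83049864-83050113, minus strand: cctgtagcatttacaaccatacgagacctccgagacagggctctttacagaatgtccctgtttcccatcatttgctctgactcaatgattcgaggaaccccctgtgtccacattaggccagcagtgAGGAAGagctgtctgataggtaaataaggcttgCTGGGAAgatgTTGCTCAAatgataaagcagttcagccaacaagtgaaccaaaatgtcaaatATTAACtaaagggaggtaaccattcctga
Fga, chr3:83026103-83026122, plus strand: ggtgatgATTAACctcctgc
Fgg, chr3:83007474-83007723, plus strand: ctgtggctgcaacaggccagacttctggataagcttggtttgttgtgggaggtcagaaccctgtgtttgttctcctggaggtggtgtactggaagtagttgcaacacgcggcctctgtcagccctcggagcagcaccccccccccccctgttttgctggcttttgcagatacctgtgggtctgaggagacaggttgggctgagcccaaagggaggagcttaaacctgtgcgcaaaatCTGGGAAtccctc
F10, chr8:13037058-13037307, plus strand: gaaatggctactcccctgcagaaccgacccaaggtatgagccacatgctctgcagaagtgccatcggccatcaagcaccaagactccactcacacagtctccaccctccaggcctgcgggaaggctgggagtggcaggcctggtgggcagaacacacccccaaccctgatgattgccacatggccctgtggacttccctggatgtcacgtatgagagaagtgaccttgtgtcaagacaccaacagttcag
F13a1, chr13:37050245-37050494, minus strand: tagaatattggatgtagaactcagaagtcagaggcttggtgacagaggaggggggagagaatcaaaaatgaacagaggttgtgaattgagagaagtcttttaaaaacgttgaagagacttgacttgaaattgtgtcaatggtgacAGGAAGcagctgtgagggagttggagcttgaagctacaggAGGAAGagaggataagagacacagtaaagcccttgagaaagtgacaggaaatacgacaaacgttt

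Promoter windows were found for 8 of the 9 genes, and motif shares are given over 32851 windows of 250 bases. The HNF1 motif, searched here as GTTAAT, is present in 6.43% of all windows, and stood 29 to 24 bases before the start of Fgb. In Fga it stood 43 to 38 bases before the RefSeq start, inside that GENCODE exon. The C/EBP motif, searched as TTGCNNAA and present in 9.56% of all windows, was found in Fga and Fgb. The IL-6 response element, searched as CTGGGAA and present in 9.10% of all windows, was found in Fgb and Fgg. The ETS motif, searched as AGGAAG and present in 29.5% of all windows, was found in Fgb, F5 and F13a1. No window of the 8 genes held the HNF4 motif (CAAAGTCCA, in 0.384% of all windows), the E-box (CACGTG, in 6.02%), the GATA motif (AGATAA, in 9.99%) or the TATA box (TATAAA, in 12.4%). The windows of F2, F10 and Serpinc1 held none of the 8 motifs. None of the searched motifs overlapped another in these windows. A match is a run of letters and does not show that a factor binds there.

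Hepatoblasts held 6 of the 9 genes: the 3 fibrinogen chains, F2, Serpinc1 and Plg had their highest level in Hepa in both libraries. Over all 11593 genes with at least 20 UMIs in the kept cells of each library, 7.43% had their highest level in Hepa in both libraries. All 6 were also at least 10-fold above each other cell type in both libraries, which held for 0.647% of all genes. F10 and F5 were highest in Mk in both libraries, as were 6.91% of all genes, and F13a1 was highest in Mo/KC, as were 6.81% of all genes, but none of these 3 was set apart 10-fold, as were 0.19% of all genes in Mk and 0.112% in Mo/KC. No gene was highest in EC, as were 12.3% of all genes, and for 9 genes this is near that share. The 20 and 26 EC cells held at most 2 UMIs of any of the 9 in a library.

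**Figure D1:**
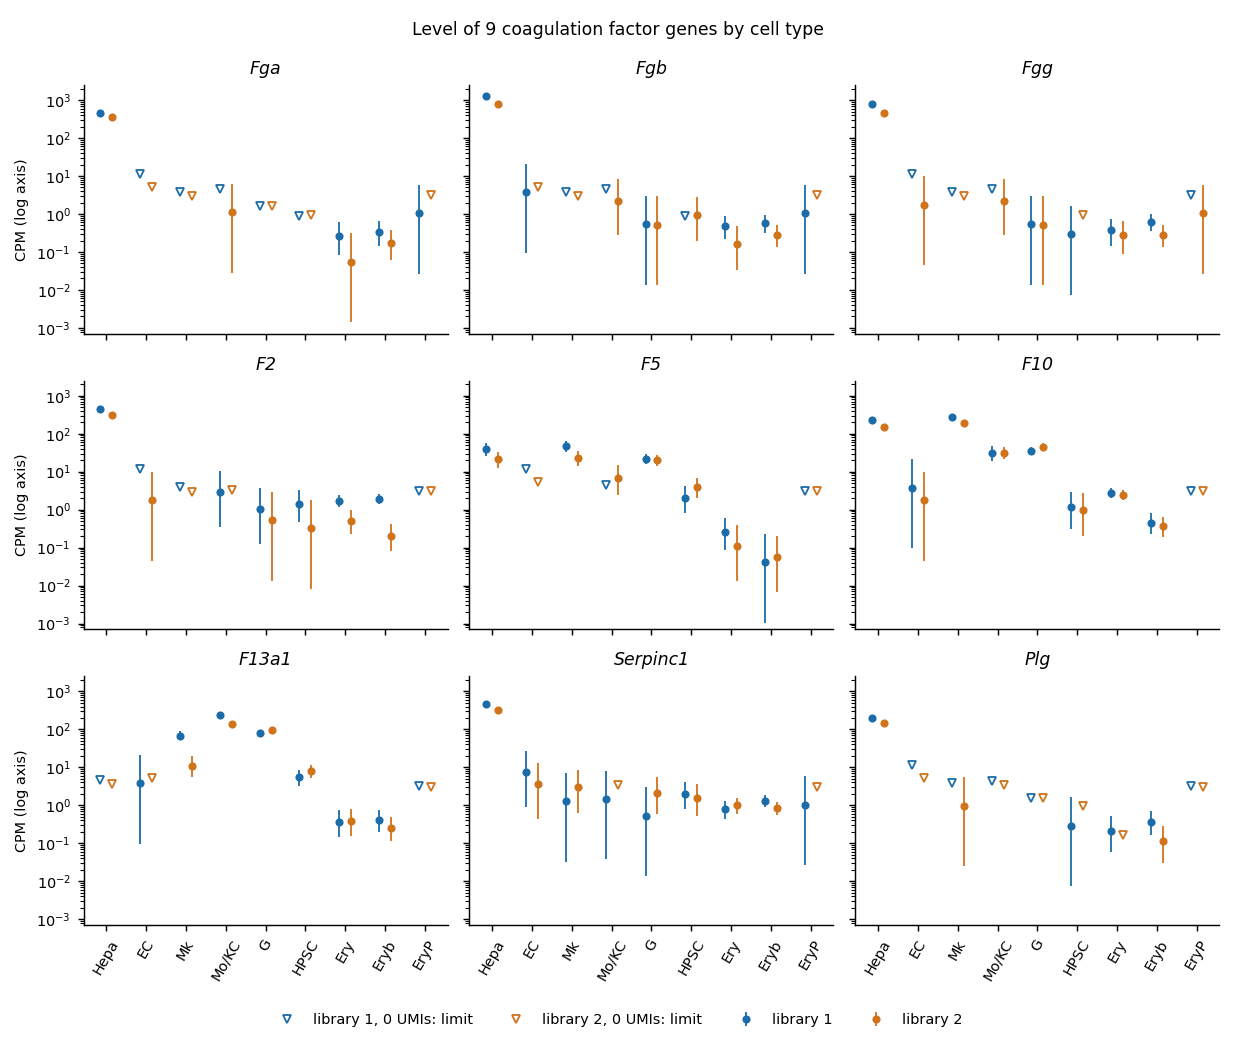
Level (CPM, log axis) of each gene in 9 cell types, with library 1 in blue and library 2 in orange, bars giving 95% Poisson intervals and open triangles the limit of 3 counts where no UMI was found. The fibrinogen chains, F2, Serpinc1 and Plg stand high in Hepa alone, whereas F10 is near 200 CPM in both Hepa and Mk and F13a1 is highest in Mo/KC and at 0 UMIs in Hepa.

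Of the 9 genes, the fibrinogen chains Fgb and Fgg had the highest levels. Fgb, the Bβ chain, was at 1265 CPM in Hepa of library 1 (810 UMIs, 95% interval 1180 to 1355) and 796 CPM in library 2 (645 UMIs, 736 to 860). Fgg, the γ chain, was at 786 CPM (718 to 857) and 461 CPM (415 to 510). Fga, the Aα chain, was at 449.8 CPM (399 to 505) and 362 CPM (322 to 406). The 3 chains are joined in equal numbers in the protein, but their UMIs were not equal in these cells. There were 0.356 Fga UMIs per Fgb UMI in library 1 (0.310 to 0.407) and 0.454 in library 2 (0.394 to 0.522). For Fgg the ratio to Fgb was 0.621 (0.554 to 0.695) and 0.578 (0.508 to 0.658). The order Fgb, Fgg, Fga thus held in both libraries beyond counting error. It is an order of UMIs, since differences between genes in capture and mapping of their RNA were not measured.

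Antithrombin RNA, Serpinc1, stood at 472 CPM (420.0 to 528) in Hepa of library 1 and 319.8 CPM (282 to 361) in library 2. Prothrombin RNA, F2, was at 445 CPM (395 to 499.9) and 312 CPM (275 to 353). Serpinc1, Fga and F2 were neighbours in the order of levels and did not differ beyond counting error in either library, the ratio of each to the next lying between 1.01 and 1.13. Plg, the source of plasmin, was lower, at 194 CPM (161 to 231) and 146 CPM (121 to 174), and did not differ from F10 in the same cells, at 234 and 148 CPM. F5 was the lowest of the 8 genes detected in Hepa, at 39.0 CPM (25.3 to 57.6) and 21.0 CPM (12.2 to 33.6). F13a1 had 0 UMIs in all 64 Hepa cells, which allows up to 4.69 and 3.704 CPM.

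Nearly all UMIs of the fibrinogen chains came from Hepa cells, which were 64 of the 10537 kept cells. Hepa held 95.4% of the Fga UMIs in library 1 and 97.3% in library 2, 96.9% and 97.1% of those of Fgb, and 95.4% and 94.9% of those of Fgg. The share was 89.9% and 95.9% for Plg and 83.4% and 80.7% for Serpinc1. For F2 it was 76.4% (71.8 to 80.6) in library 1 and 93.0% (89.3 to 95.7) in library 2, so the libraries differed for this gene. In a bulk sample of this liver, fewer cells of a type and less RNA per cell could not have been told apart. Here the level is read within a type, whereas the share of UMIs also depends on the number and depth of the cells. Both are computed from the same counts.

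**Figure D2:**
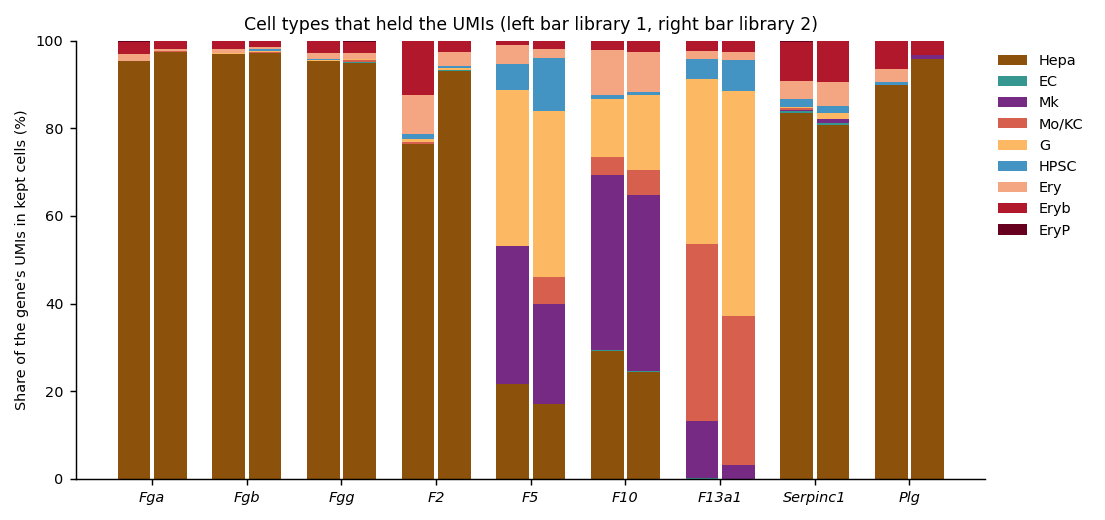
Share (percent) of each gene's UMIs in kept cells that came from each cell type, the left bar of a pair being library 1 and the right bar library 2. The bars of Fga, Fgb, Fgg and Plg are almost wholly Hepa, and F2 and Serpinc1 have a visible erythroid part. Those of F5 are divided mainly among G, Mk, Hepa and HPSC, and those of F10 among Mk, Hepa, G and Ery. F13a1 is mainly Mo/KC and G, with no Hepa part.

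Outside Hepa, the 6 genes were low. In barcodes with 1 to 50 UMIs, which hold RNA from solution and no cell, Fgb stood at 12.7 and 13.3 CPM, and the other 5 were at 3.06 to 7.14 CPM. In the kept cells outside Hepa, the 6 genes together had 226 UMIs in 217 of 5447 cells of library 1 and 133 UMIs in 129 of 5026 cells of library 2, or 4.40 and 2.15 CPM. No such cell held more than 2 of these UMIs in library 1 or 3 in library 2. The erythroid UMIs did not keep the proportions of Hepa. In Ery and Eryb of library 1 there were 79 UMIs of F2 against 58 of the 3 fibrinogen chains together, a ratio of 1.36 (0.958 to 1.95), compared with 0.178 (0.156 to 0.202) in Hepa and 0.204 (0.0922 to 0.408) in free RNA. In library 2 the F2 ratio was 0.457 (0.236 to 0.848) in these erythroid cells and 0.193 in Hepa. For Serpinc1 the erythroid ratio was 0.81 (0.54 to 1.21) and 1.37 (0.869 to 2.18), against 0.189 and 0.198 in Hepa. The last 2942 bases of Serpinc1 overlap Zbtb37 on the opposite strand, and whether this or another source gave these UMIs was not tested. The levels of F2 and Serpinc1 in Ery and Eryb, at most 1.90 CPM, were below those in barcodes with 1 to 50 UMIs. In library 1 this did not hold against barcodes with 51 to 200 UMIs, where each gene had 1 UMI, or 1.14 CPM (0.0289 to 6.36), against 1.73 CPM for F2 in Ery and 1.90 and 1.32 CPM for F2 and Serpinc1 in Eryb. In library 2 these barcodes held 4.64 CPM of each, above both erythroid types. Globin UMIs, a median of 42.7% and 66.8% of those of an Eryb cell, count in the CPM and lower the levels of other genes there.

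To compare shares of cells at one depth, each cell was thinned to 3600 UMIs, leaving out shallower cells, so that 24 of 33 and 31 of 31 Hepa cells remained. Fgb was then detected in 87.5% (67.6 to 97.3, exact binomial interval) of Hepa cells of library 1 and 71.0% (52.0 to 85.8) of library 2, against 93.9% and 83.9% without thinning. In Eryb, which should lack the gene, the thinned share was 0.238% and 0.111%, from cells with a median depth of 5613 and 8983 UMIs before thinning (22391 and 21910 in Hepa). Fgg reached 83.3% and 83.9% of thinned Hepa cells and Serpinc1 83.3% and 64.5%. F2 reached 75% and 58.1%, Fga 70.8% and 61.3%, and Plg 37.5% and 29.0%. These shares come from 1 random draw. The mean over all draws was 88.0% and 72.8% for Fgb, 82.5% and 72.1% for Fgg, and 73.5% and 56.2% for Serpinc1. It was 73.1% and 53.8% for F2, 72.5% and 57.0% for Fga, and 48.5% and 32.1% for Plg. The lead of Fgg over Fgb in library 2 was thus not kept over all draws. Fgb ranged from 0 to 98 UMIs per cell with a median of 20 in library 1, and from 0 to 76 with a median of 14 in library 2. Its variance over the mean in thinned cells was 2.59 and 5.07, above the value of 1 that pure counting gives. That of Fga was 2.04 and 1.77, that of Fgg 1.68 and 1.37 and that of Plg 1.28 and 1.04. This measure rises with the mean at equal relative variation. The thinned means were 5 and 3.48 UMIs for Fgb, 2.79 and 1.97 for Fgg, and 0.542 and 0.355 for Plg. The values therefore do not rank the genes by how much they vary.

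The cells annotated Hepa were not uniform. The 5 hepatoblast markers made up 0.140% to 15.2% of the UMIs of a cell in library 1 and 0.310% to 12.9% in library 2. A border of 2%, set after these values were seen, left 3 cells of library 1 and 12 of library 2 below it, with 2 and 7 cells lying between 1% and 3%. In the cells below the border the 6 genes summed to 326 (211 to 481) and 497 CPM (392 to 621). Above it they summed to 4059 CPM (3894 to 4229) and 2846 CPM (2718 to 2978). The cells below the border also had more adult globin UMIs (Hbb-bs, Hbb-bt, Hba-a1 and Hba-a2), with a median of 6.09% and 16.4% against 0.899% and 1.49% above it. In library 1 this rested on 2 of the 3 cells, since the third, at 0.904%, lay close to the median above the border. Klf1 and Rhd, markers of erythroid cells, were both present, summing to 1277 and 774 CPM, against 146 and 278 CPM above the border. All 5 EC, all 5 Mo/KC and all 5 mesenchymal markers were at 0 UMIs in them. The EC and Mo/KC lists reached at most 7.63 CPM above the border too, so their absence says little. Markers of G, at 26.1 and 12.9 CPM, and of Mk were present below the border in both libraries. Those of HPSC were present in library 2 alone, at 32.3 CPM. The 3 embryonic globins summed to 339 and 1109 CPM below the border, against 602 and 370 CPM above it. The part of these erythroid RNAs in the lower levels was not tested, and the Hepa cells above the border held all 6 genes in the median cell of both libraries.

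Across Hepa cells the 6 genes went with the markers. The Spearman correlation of their summed CPM with the marker share was 0.696 over 33 cells of library 1 and 0.934 over 31 cells of library 2, and 0.596 over 30 and 0.821 over 19 cells above the border. Between single genes, the 15 pairs had Spearman correlations of -0.0190 to 0.545 in library 1 and 0.246 to 0.793 in library 2 above the border. All these points share the depth of their cell, and they are given as a description.

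**Figure D3:**
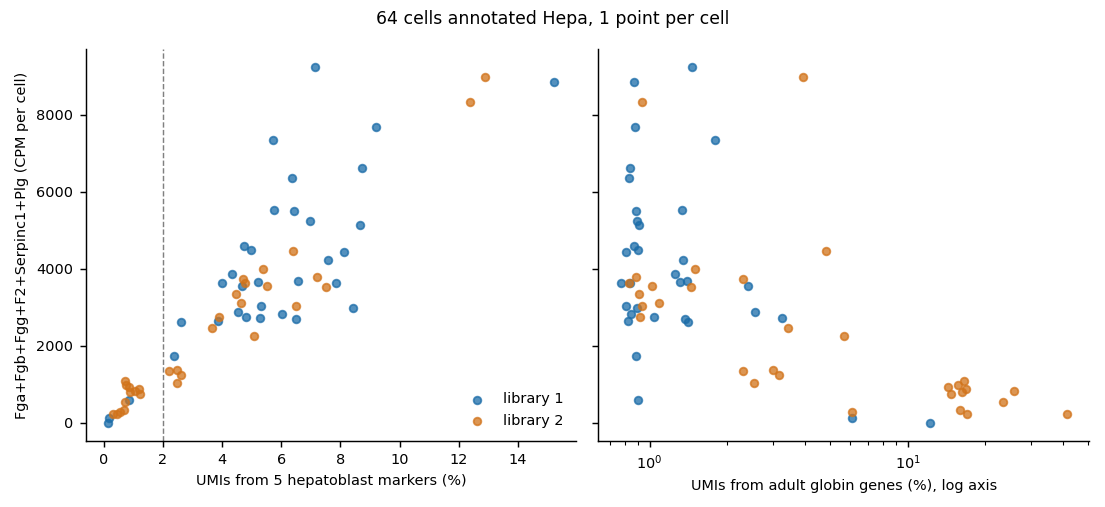
Summed level of Fga, Fgb, Fgg, F2, Serpinc1 and Plg (CPM per cell) of the 64 cells annotated Hepa, 1 point per cell, against the share of UMIs from 5 hepatoblast markers (left, percent, dashed line at 2%) and from adult globin genes (right, percent, log axis). The 15 cells left of the line are low for the 6 genes, and 12 of them are from library 2.

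Levels in Hepa were higher in library 1 for all 8 genes detected there, and 57.3% of the 5769 genes with at least 20 UMIs in Hepa were higher in library 1. The ratio of library 1 to library 2 was 1.71 (1.49 to 1.96) for Fgg, 1.59 (1.43 to 1.76) for Fgb, 1.58 (1.24 to 2.03) for F10 and 1.24 (1.05 to 1.47) for Fga, with a median over the 5769 genes of 1.06. The hepatoblast markers moved the same way, with a ratio of 1.41 for Alb and 1.33 for Afp. Without the cells below the 2% border the ratio was 1.65 (1.44 to 1.90) for Fgg, 1.49 (1.34 to 1.66) for Fgb and 1.19 (1.003 to 1.41) for Fga, so a difference between the libraries remained. Both came from 1 liver, and the cause was not tested.

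F10, the zymogen of factor X, was held mainly by 2 cell types. It was at 268 CPM (206 UMIs, 232 to 307) in Mk and 234 CPM (150 UMIs, 198 to 275) in Hepa of library 1, and at 196 CPM (199 UMIs, 170 to 225) and 148 CPM (120 UMIs, 123 to 177) in library 2. The ratio of Mk to Hepa was 1.14 (0.921 to 1.42) and 1.32 (1.05 to 1.68). Against the Hepa cells above the 2% border it was 1.03 (0.826 to 1.28) and 1.14 (0.898 to 1.45), so the order of these 2 types was not settled. Both stood above G, at 36.0 and 44.8 CPM, and Mo/KC, at 30.9 and 31.6 CPM, which did not differ from each other. EC had 1 UMI in each library. Mk held 40.1% and 40.3% of all F10 UMIs, Hepa 29.2% and 24.3%, and G 13.2% and 17.2%. Ery, with far more cells, held 10.3% and 9.11% at a level of 2.78 and 2.50 CPM. Eryb was at 0.453 and 0.366 CPM, a level that its globin UMIs lower. The Ery UMIs were 53 in 37 cells of library 1 and 45 in 34 cells of library 2. Free RNA was at 7.60 and 8.16 CPM. It can be only a part of a cell's UMIs, so a lower level does not mark the Ery UMIs as free RNA. Their source was not tested.

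In Mk, F10 was detected in 48 of 79 cells of library 1 and 42 of 56 of library 2, with up to 35 and 18 UMIs in a cell. The Hepa-held genes were all but absent from the same cells: Fga, Fgb, Fgg and F2 had 0 UMIs in all 135 Mk cells, Serpinc1 had 1 and 3, and Plg 0 and 1. The neighbours of F10 on chromosome 8 did not share its pattern. F7, which ends 1498 bases before F10, and Proz, which begins 4237 bases after it, both had 0 UMIs in Mk of both libraries. In Hepa they were at 18.7 and 8.64 CPM (F7) and at 62.5 and 38.3 CPM (Proz). These encode factor VII, which starts the chain, and protein Z, a cofactor in the inhibition of factor X. Ggcx, the carboxylase that factor X needs, was at 3.896 and 4.93 CPM in Mk and at 35.9 and 23.5 CPM in Hepa. The Mk values rest on few UMIs, since 3 counts in Mk are 3.896 and 2.96 CPM. Vkorc1, which recycles vitamin K for Ggcx, was at 46.8 and 72.0 CPM in Mk and 125 and 193 CPM in Hepa.

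F5, the cofactor of factor X, was low and was found mainly in 3 types. It was at 46.8 CPM (36 UMIs, 32.7 to 64.7) in Mk, 39.0 CPM in Hepa and 21.7 CPM (15.6 to 29.4) in G of library 1, and at 22.7 CPM (14.4 to 34.0), 21.0 CPM and 20.04 CPM (14.2 to 27.5) in library 2. Mk and Hepa did not differ beyond counting error, with ratios of 1.20 (0.699 to 2.08) and 1.08 (0.552 to 2.15). Against the Hepa cells above the 2% border the ratio was 1.05 (0.615 to 1.83) and 0.874 (0.447 to 1.74), so the order of these 2 types was not settled for F5 either. Mk stood above G by 2.16 times (1.34 to 3.46) in library 1 but not beyond counting error in library 2, at 1.13 times (0.644 to 1.95). HPSC were at 2.03 and 3.84 CPM, and Mo/KC at 0 and 6.78 CPM. The Mk UMIs came from few cells, 14 of 79 and 10 of 56, of which the top 5 held 72.2% and 78.3%. Of these 14 and 10 cells, 13 and 10 also had F10. Selp, which encodes platelet P-selectin and ends 1811 bases before F5, had 3 and 1 UMIs in Mk.

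F13a1, the factor XIII A chain, was held by myeloid cells. In Mo/KC it was at 243 CPM with 165 UMIs (207 to 283) and 139 CPM with 123 UMIs (115 to 166), and was detected in 31 of 56 and 35 of 58 cells. G followed at 80.9 CPM (153 UMIs, 68.6 to 94.8) and 97.6 CPM (185 UMIs, 84.0 to 113). The ratio of Mo/KC to G was 3.01 (2.40 to 3.77) and 1.42 (1.12 to 1.80). Because there were more G cells, G held 37.5% and 51.4% of the F13a1 UMIs and Mo/KC 40.4% and 34.2%. HPSC were at 5.51 and 8.001 CPM. In Mk the libraries differed, with 68.8 CPM from 53 UMIs (51.6 to 90.03) against 10.8 CPM from 11 UMIs (5.41 to 19.4), a ratio of 6.35 (3.28 to 13.5). Among Mk cells with at least 4387 UMIs, the depth of the shallowest kept cell of library 2, it was 4.87 (2.43 to 10.6). In library 1 the top 3 Mk cells held 21 of the 53 UMIs. The 5 Mo/KC markers summed to 2.597 and 2.96 CPM in Mk, with 2 of the 5 at 0. The 5 G markers summed to 33.8 and 50.3 CPM in Mk, with 1 at 0. In barcodes with 51 to 200 UMIs, F13a1 was at 28.5 CPM (18.5 to 42.1) in library 1 and had 0 UMIs in library 2. The part of RNA from other cells in the Mk level of F13a1 was not tested.

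Within each of these types, cells were divided by other genes. Mk cells were split at the median share of the platelet genes Pf4, Ppbp, Gp9, Gp1bb and Itgb3 in each library. F10 was at 381 CPM (324 to 444) in the higher side and 130 CPM (94.6 to 174) in the lower side of library 1, and at 294 CPM (251 to 343) and 79.8 CPM (56.2 to 110) in library 2. The ratio was 2.93 (2.097 to 4.18) and 3.69 (2.57 to 5.42). F5 was 9.02 times higher (2.83 to 46.0) in library 1, from 33 against 3 UMIs, and 18.5 times (2.996 to 765) in library 2, from 22 against 1. F13a1 was 3.13 times higher (1.58 to 6.74), from 42 against 11 UMIs, and 8.42 times (1.20 to 366), from 10 against 1. Median depth was 5506 and 16024 UMIs per cell on the lower side and 5699 and 17993 on the higher. Between the 27 and 19 cells lowest and the 26 and 19 cells highest in platelet genes, F10 differed by 7.17 times (3.87 to 14.8) and 8.51 times (4.60 to 17.5), with depths of 2947 and 9444 against 5286 and 20877 UMIs. F13a1 then differed by 8.22 times (2.05 to 71.6) in library 1, but not beyond counting error in library 2, at 6.48 times (0.898 to 284) from 9 against 1 UMIs. F10 and F5 were thus higher in the platelet-gene-rich cells under both divisions, whereas for F13a1 this was clear in library 1 alone.

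Mo/KC cells were divided by whether they had more UMIs of a monocyte list (Ly6c2, Ccr2, Plac8, S100a4, Cd52, Ms4a4c) or of a macrophage list (C1qa, C1qb, C1qc, Adgre1, Vcam1, Timd4, Mrc1). Of all 114 cells, 4 had list counts within a factor of 2 of each other. In the 33 and 43 cells with more monocyte UMIs, F13a1 was at 269.5 CPM (226 to 319) and 168 CPM (140 to 201) and was detected in 25 and 35 of them. In the 23 cells of library 1 with more macrophage UMIs it was at 171 CPM (116 to 242), with all 31 UMIs in 6 cells, and in the 15 such cells of library 2 there was no UMI, which allows up to 19.4 CPM. The ratio of monocyte to macrophage side in library 1 was 1.58 (1.06 to 2.41). F10 was at 42.2 and 36.9 CPM on the monocyte side. On the macrophage side it had 0 UMIs in library 1, which allows up to 16.5 CPM, and 1 UMI in library 2. The ratio of monocyte to macrophage side in library 2 was 5.70 (0.939 to 233), not beyond counting error. Median depth differed, at 13878 and 16803 UMIs per cell on the monocyte side and 5299 and 7851 on the macrophage side.

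The G cells were divided, after their values were seen, by whether early granule genes (Mpo, Elane, Prtn3, Ctsg) or late ones (Ngp, Camp, Ltf, S100a8, S100a9) had more UMIs, and the values are given as a description. F13a1 was at 109 and 133 CPM in the early cells and at 31.1 and 33.0 CPM in the late cells of libraries 1 and 2. F10 and F5 lay the other way, F10 at 9.89 and 13.8 CPM early and 82.97 and 102 CPM late, F5 at 7.42 and 6.50 CPM early and 45.9 and 45.0 CPM late. The early cells numbered 69 and 68 and the late cells 87 and 62, and 1 cell of library 1 had equal counts. Median depth differed here too, at 18315 and 18646 UMIs per early cell and 5934 and 10244 per late cell. The intervals of the early and late side of each library did not overlap for any of the 3 genes. Divided instead at the median share of the monocyte list, the G cells gave less clear differences. F13a1 on the higher over the lower side was 1.20 (0.859 to 1.68) and 1.81 (1.33 to 2.49), F10 0.619 (0.368 to 1.03) and 1.13 (0.721 to 1.78), and F5 0.411 (0.195 to 0.819) and 1.18 (0.594 to 2.39), so F13a1 in library 2 and F5 in library 1 differed beyond counting error and the other values did not.

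**Figure D4:**
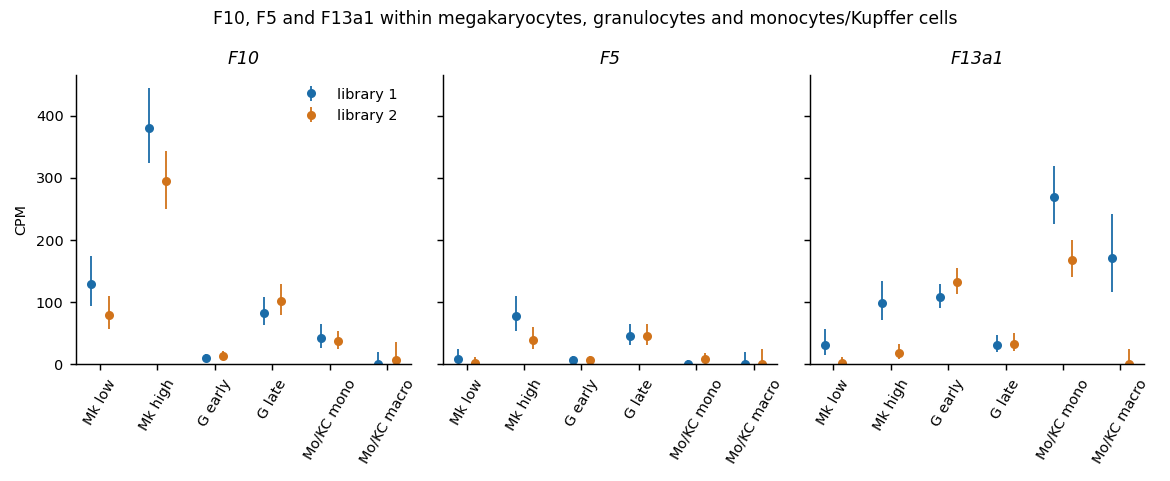
Level (CPM, linear axis) of F10, F5 and F13a1 in Mk cells with a low or high platelet gene share, G cells with more early or late granule UMIs, and Mo/KC cells with more monocyte or macrophage UMIs, library 1 in blue and library 2 in orange, with 95% Poisson intervals. F10 and F5 are higher in platelet-gene-rich Mk and in late G cells, whereas F13a1 is higher in early than in late G cells and highest on the monocyte side of Mo/KC.

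Other genes of coagulation and fibrinolysis gave the setting of these 9. Of a list of 41, all were in the tables, 27 had at least 20 UMIs in each library, and 13 of these 27 were highest in Hepa in both libraries (7.43% of all genes). A further 5 were highest in EC (12.3% of all genes), 4 in Mk (6.91%), 1 in G (3.82%) and none in Mo/KC (6.81%). For 27 genes, these counts outside Hepa are not far from the shares over all genes. For 4 (Pros1, Procr, Plgrkt and Mcfd2) the highest type differed between the libraries. In Hepa, 8 of the list were set apart 10-fold, as were 0.647% of all genes. The highest were Serpina1a, a protease inhibitor with near-identical copies in the genome whose counts are therefore uncertain, at 2020 and 1143 CPM, and Serpinf2, the plasmin inhibitor, at 1328 and 883 CPM. Kng1, kininogen, was at 409 and 207 CPM, and Serpind1, heparin cofactor II, at 305 and 221 CPM. Some factors, named after their values were seen, were scarcely detected even in Hepa. With both libraries summed, F9 was at 2.76 CPM, F11 at 6.21 CPM, F13b, the carrier chain of factor XIII, at 8.27 CPM, and Klkb1, prekallikrein, at 4.14 CPM. Serpina5 and Hrg had 0 UMIs in all kept cells.

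Mk carried the RNAs of the receptors for thrombin and Vwf, which ties platelets to the vessel wall. F2rl2 was at 503 and 387 CPM, F2r at 396 and 362 CPM, Vwf at 117 and 89.7 CPM and F2rl3 at 76.6 and 66.1 CPM. F2rl2 and Vwf were set apart in Mk (0.19% of all genes). EC, highest for none of the 9, led for S100a10 (935 and 708 CPM) and Anxa2 (691 and 662 CPM), whose proteins together bind plasminogen at the cell surface, for Tfpi, the inhibitor of the start of coagulation (256 and 203 CPM), and for Thbd, the thrombin receptor thrombomodulin (22.9 and 14.1 CPM). Vwf in EC was at 3.82 and 5.29 CPM. Plaur, the urokinase receptor, was highest in G, at 102 and 71.2 CPM, followed by Mo/KC, at 45.7 and 44.0 CPM.

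**Figure D5:**
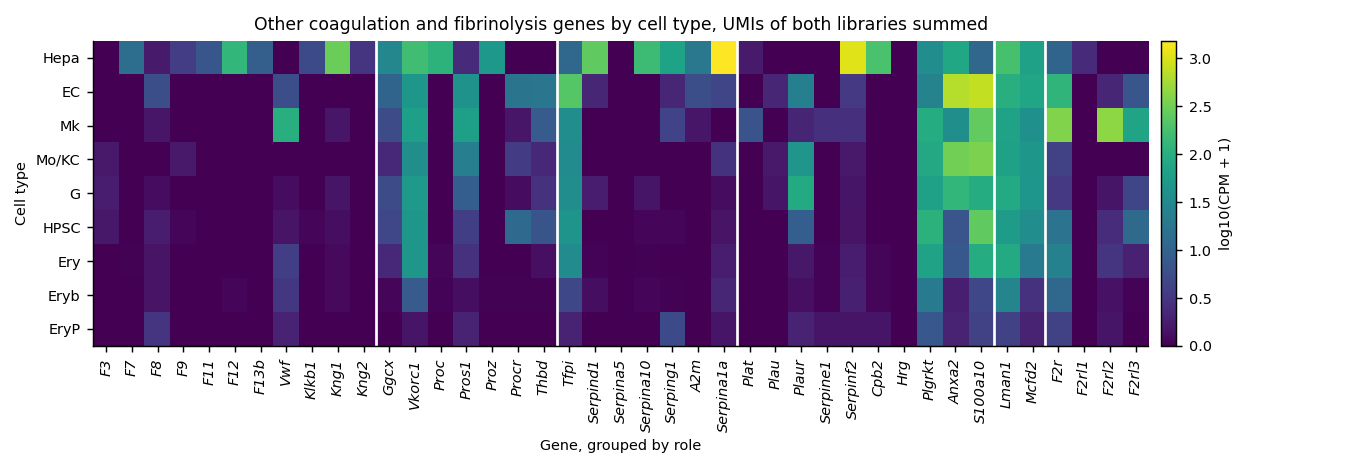
Level of 41 other coagulation and fibrinolysis genes (columns, grouped by role) in 9 cell types (rows), as log10(CPM + 1) with the UMIs of both libraries summed. Serpina1a and Serpinf2 reach the highest values in Hepa, S100a10 and Anxa2 in EC, and F2rl2 and F2r in Mk, while F9, F11 and Klkb1 are low in every row.

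The genes whose pattern was most like that of each factor were found by the Pearson correlation of log2(CPM + 1) over 18 points, 9 cell types in 2 libraries that share 1 liver. For Fga they were Hpx (r = 0.999), Gulo and Mmd2, for Fgb Serpina6 (0.985), Hpx and Mmd2, and for Fgg Serpina1a (0.994), Aadac and Mmd2. For F2 they were Agmat (0.983), Itih2 and Serpina1b, for Serpinc1 Fabp1 (0.976), Apoa2 and Cgref1, and for Plg Apoh (0.998) and Pzp. F10 and F5 were like each other (0.868), and both had Rasl11b among the 3 nearest, at 0.906 and 0.905. F13a1 was nearest to Lilrb4a (0.964), Rab32 and Lyz2. The nearest coding gene upstream of F13a1 on chromosome 13, Ly86, 294963 bases away, was at 361 and 251 CPM in Mo/KC and at 17.98 and 3.69 CPM in G.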

How the data were processed

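Each library was made with the 10x Chromium system and sequenced by the authors. The deposited counts are UMIs per gene and barcode, which the authors made with Cell Ranger (version 2.1.1 in the submitters' processing notes, 3.0.0 in the matrix header of library 1) on mm10; Seurat 3.2.0 is also named there. Counts were used as deposited, raw and filtered, with the cell types of the deposited cell table, whose cell names carry the library number. No doublet caller was run: the sort removed doublets before loading, and droplets holding 2 cells were not tested for. UMIs of each gene were summed per cell type and library (Python 3.11.15, numpy 2.4.6, scipy 1.17.1) and divided by all UMIs of those cells. Intervals are exact 95% Poisson (levels), Clopper-Pearson (shares) or conditional binomial (ratios), and they cover counting error only. A count of 0 allows up to 3 counts. A gene was called set apart when it was at least 10-fold over each other type in both libraries, with counts under 3 taken as 3. Shares of cells were thinned to 3600 UMIs in 1 draw with seed 1. The calling rule was tested on simulated data for Hepa over 11593 genes: of 43 genes raised 20-fold to 1000 CPM or more, 97.7% were called. There were 0 calls among genes not raised, but these had the same level in every type and counting error only. That 0 therefore followed from the setting, and free RNA, mixed cells and real differences between types were not simulated. Of all 200 raised genes 58.5% were called, so low genes can be missed. Depth per kept cell had a median of 6261 and 9774 UMIs. Members and lists were chosen with earlier results of these data known. Named are the 9 genes, the leading and absent genes of a list of 41, and the 3 genes of most like pattern. Some items are not reported here, so 1 like gene is not named and 2 marker lists were used 1 gene shorter than planned. The promoter sequences are from RefSeq (GRCm38.p6) and positions from GENCODE vM21 (GRCm38). Plg has no entry in the promoter table used here. Alternatives were each library alone, other filters on cells, a mean over cells, subtraction of free RNA, other thresholds and other splits. Whether counting used the strand is not given in the sources used here, so reads of overlapping genes may be mixed.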

Additional observations from a re-analysis of the deposited data

Results flagged for a closer look

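Library 2 held 26 barcodes that were not called as cells although they had at least 1000 UMIs and 200 genes and took 2% or more of their UMIs from the 5 hepatoblast markers. They stood out because they lie outside the kept cells yet carried Fga, Fgb, Fgg, F2, Serpinc1 and Plg at 4631 CPM together (218 UMIs, 4036 to 5288), against 38.8 CPM in free RNA of the same library. Their depth was 1036 to 3848 UMIs with a median of 1459, under the 4387 UMIs of the shallowest kept cell of library 2. At least 1 UMI of the 6 genes was found in 25 of the 26. Fgb was at 1487 CPM (1159 to 1879), Fgg at 871 CPM (625 to 1181) and F2 at 765 CPM (536 to 1059), compared with 951, 537 and 374 CPM in the kept Hepa cells of library 2 above the same marker border. F10 was at 191 CPM (87.4 to 363), and F5 and F13a1 had 0 UMIs, which allows up to 63.7 CPM. Library 1 had no such barcode, but 8 of its kept Hepa cells above the border had under 2000 UMIs, with the 6 genes at 4858 CPM (3605 to 6404), against 4044 CPM (3878 to 4215) in its deeper ones.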

How the results depend on the processing

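With the UMIs of both libraries summed, 6 genes were highest in Hepa, 2 in Mk and 1 in Mo/KC, and 6 were set apart. The 6 in Hepa, the 6 set apart and the 1 in Mo/KC stayed within 1.5 times of these counts under each alternative tried. The count in Mk was 2 with either library alone but 0 with the mean over cells of the CPM of each cell, 1 without the 5% of cells with the most UMIs, and 1 without the Hepa cells under 2% of marker UMIs, an alternative chosen after seeing the data. With the mean over cells F5 was highest in G (34.6 CPM, 28.9 in Mk) and F10 in Hepa, and in the other 2 alternatives F5 was highest in Hepa, so the count in Hepa was 7 in all 3. The F5 level in Mk over that in Hepa, 1.14 with an interval that includes 1, was 0.961 without the 5% of cells and 0.959 without the low-marker cells. The F10 level in Mk over that in Hepa was 1.22 with UMIs summed and turned to 0.931 with the mean over cells, so which of the 2 types is higher depends on how cells are weighted. The background share of genes set apart in Hepa was 0.647% and stayed within 1.5 times when genes with at least 1 or at least 100 UMIs in each library were used. Levels differed between the libraries by more than counting error, from 139 to 243 CPM for F13a1 in Mo/KC, and its ratio to G from 1.42 to 3.01. Of 232 values recomputed, 156 stayed within the counting interval of the value as reported (for counts of genes and the background share, within 1.5 times), 75 moved outside it and 1 called value, the F10 ratio, changed direction. The 31 barcodes found in both libraries moved none of the 16 values recomputed without them. No paired analysis was possible because the study has 1 group, and its 2 libraries are technical replicates of 1 liver. With 33 and 31 Hepa and 20 and 26 EC cells, an absent gene is only bounded: the limit of 3 counts in EC is 11.4 and 5.29 CPM.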
